A study of Homo sapiens with 8 samples.

Results

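Cytosolic ribosomal proteins are the protein part of the ribosome that works in the cytoplasm. Their genes were taken by symbol: RPL (large subunit) or RPS (small subunit) followed by a number, with RPLP0, RPLP1, RPLP2 and RPSA, and without the RPS6K kinases, RPS4Y1, antisense names and names that end in P and digits. The rule gave 81 of 13730 genes in the deposited table, 50 of the large and 31 of the small subunit. Of these, 76 are the usual genes of a subunit protein and 5 are second copies, or paralogs (RPL7L1, RPL22L1, RPL26L1, RPL36AL and RPS27L). RPS18 is a usual small subunit gene that is not analysed here. FAU, which encodes a small subunit protein fused to a ubiquitin-like protein, lies outside the rule and is given apart.

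Each ribosome carries 1 copy of nearly every one of these proteins, so the proteins are needed in like amounts and surplus protein is degraded. Their mRNAs typically begin with a run of pyrimidines right at the cap, the 5′ terminal oligopyrimidine (TOP) motif, through which mTORC1 and the RNA-binding protein LARP1 control their translation and stability. Ribosome production is among the costliest activities of a growing tumour cell, and some free ribosomal proteins, RPL5 and RPL11 above all, bind MDM2 and thereby block its work as a ubiquitin ligase.

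The cells were LN229-TAZ(4SA), a human glioblastoma line that carries, by its name, a TAZ(4SA) construct. Control cells are labelled EV and knockout cells KO for TrxR1 (gene TXNRD1), which keeps thioredoxin reduced in the cytosol, and all 4 groups share the construct. EV and KO cells were each kept in regular medium or in glucose-deprived medium, with 2 RNA-seq libraries per group, which carry no numbers in the table and are called a and b as plain names. Neither the length of deprivation nor the number of KO clones is given in the sources used here, so differences between clones and loss of TrxR1 cannot be told apart. In the table, the headers read here as glucose-deprived end in GlcN. No label explains that ending, which can also stand for glucosamine. Whether the 2 libraries of a group stem from separate cultures is not stated either, and the p-values therefore reflect the spread among libraries alone, which may be technical.

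The table held 70083018 to 107229069 reads per library, at which 1 read was worth 0.0095 to 0.0143 CPM (the reads of a gene per 1000000 reads of the library). Of its genes, 13057 had a mean log2 CPM of at least 0 and were tested, among them 80 of the 81 ribosomal protein genes. TXNRD1 mRNA stood at 263 and 261 CPM in EV and 245 and 249 CPM in KO cells in regular medium, and at 509 and 493 against 370 and 351 CPM in glucose-deprived medium, so the mRNA was present in the KO libraries. The glioma-associated genes VIM (2897 to 3696 CPM), CD44, EGFR and NES were abundant, SOX2 reached 15.1 to 56.0 CPM, and GFAP only 0.675 to 1.41 CPM. The glial markers OLIG2 (6.0 to 16.9 CPM) and S100B (13.2 to 23.5 CPM) were low as well. Of markers of other cells, PTPRC, CD3E, PECAM1, VWF and CDH5 were not analysed here, and CD68 stood at 24.8 to 54.1 CPM. Of the stromal markers COL1A1 stood at 21.1 to 28.7 CPM, while COL3A1 and DCN stayed under 2 CPM. Of the neuronal ones TUBB3 stood at 259.6 to 329 CPM, SYT1 at 14.7 to 51.0 and RBFOX3 at 0.22 to 1.09 CPM.

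The starts of these genes show the shared motif and its exceptions. The lines below give 10 bases before and 20 bases from the annotated first transcribed base, 5′ to 3′ on the gene's strand, from the RefSeq promoter table (GRCh38.p14). Capitals mark a run of C and T that begins with C at the first transcribed base and holds at least 5 bases, the form of a TOP motif. The first 3 genes are a stalk protein, a small subunit protein and a large subunit protein that rose under deprivation. RPL3 had the largest rise of all, and its run at the annotated start ends after 4 bases. The others are RPS26, which had the largest fall in EV and KO cells, and genes of the paralog pairs.

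RPLP0: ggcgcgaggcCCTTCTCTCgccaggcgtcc
RPS3: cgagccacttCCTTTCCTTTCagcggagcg
RPL13A: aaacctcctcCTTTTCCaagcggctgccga
RPL3: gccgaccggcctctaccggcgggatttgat
RPS26: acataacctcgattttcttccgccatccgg
RPL22: cgctcacctcCCTTTCTaactccgctgccg
RPL22L1: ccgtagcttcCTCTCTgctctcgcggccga
RPL36A: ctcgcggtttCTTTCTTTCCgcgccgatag
RPL36AL: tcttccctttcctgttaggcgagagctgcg
RPL26: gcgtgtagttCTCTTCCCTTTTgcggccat
RPL26L1: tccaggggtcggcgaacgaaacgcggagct
RPL7L1: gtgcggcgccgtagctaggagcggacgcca

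These windows are chr12:120201092-120201121 (RPLP0, minus strand), chr11:75399508-75399537 (RPS3, plus), chr19:49487598-49487627 (RPL13A, plus), chr22:39319604-39319633 (RPL3, minus), chr12:56041908-56041937 (RPS26, plus), chr1:6199576-6199605 (RPL22, minus), chr3:170870176-170870205 (RPL22L1, minus), chrX:101391001-101391030 (RPL36A, plus), chr14:49620607-49620636 (RPL36AL, minus), chr17:8383174-8383203 (RPL26, minus), chr5:172958719-172958748 (RPL26L1, plus; the first of its 2 annotated starts) and chr6:42879606-42879635 (RPL7L1, plus). Of 66 ribosomal protein genes with an entry in that table, 46 (69.7%) had such a run at an annotated start, 29 of 42 in the large and 17 of 24 in the small subunit. The share among all 10461 matched tested genes was 7.36%. Within 5 bases of the start it was 54 of 66 (81.8%) against 29.5%. RPS26 has pyrimidines on both sides of its annotated base, but no run of this form begins within 5 bases of it. The run of RPL36AL begins before its annotated base, so a start annotated a few bases off would hide that run. Only the gene's own strand was read. Among the 5 second copies, RPL22L1 was the 1 with a run, and RPL36A had one while RPL36AL did not.

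Per kilobase of annotated exon, the mean level over all 8 libraries spanned a wide range. RPL8 (930 CPM per kilobase) and RPL3 (862), core proteins that contact ribosomal RNA, were among the 3 highest. RPS9 (0.282), RPL36A (7.0) and RPS27L (12.3) were the lowest. The median was 242 CPM per kilobase, with 189.8 for large and 325 for small subunit genes, and 22 genes lay under 100. Length of annotated exon ran against level per kilobase (Spearman rho = -0.55 over 81 genes, as a description). That level is divided by the same length, so a negative rho is partly built in and does not show that longer genes had fewer reads. With the length of the principal transcript instead, the order was alike (rho = 0.93, with the same CPM on both sides). RPS21, RPL19 and RPL8 then came out highest, and RPS9, RPS27L and RPL22L1 lowest. Neighbours in this order overlapped: RPL8 ranged from 881 to 1033 CPM per kilobase over libraries and RPL3 from 687 to 1063.

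**Figure D1:**
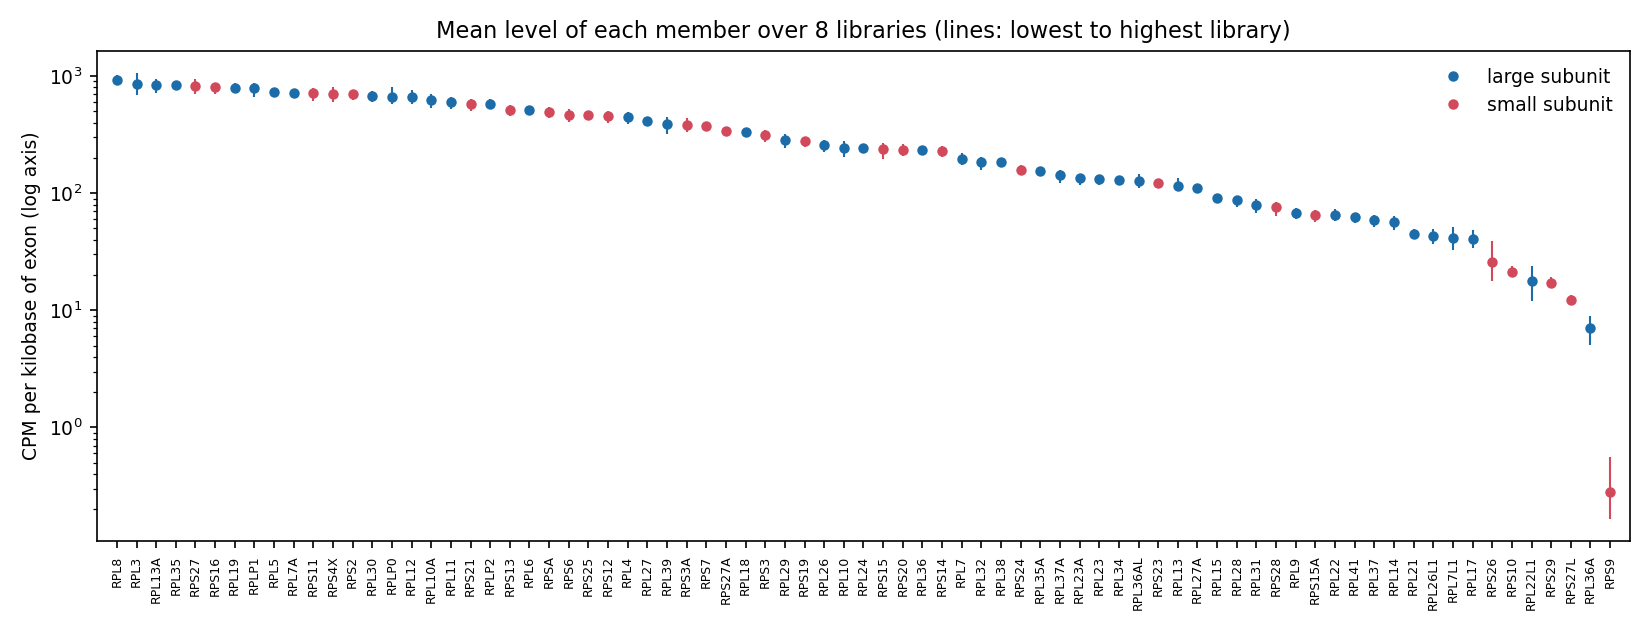
Mean CPM per kilobase of merged exon (log axis) of 77 ribosomal protein genes over 8 libraries, with a line from the lowest to the highest library, coloured by subunit. Genes above the lowest 7 lie between 40.5 and 929.6, and RPS9 lies far below all others at 0.282.

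RPS9 stood apart from the other members, and its value is not read as expression of the gene. RPS9, a protein of the small subunit body that every ribosome needs, was listed at 0.31 to 1.05 CPM, below the filter, and was not tested. Its annotated locus (GRCh38 chromosome 19, 54200742 to 54249003) overlaps other genes on either strand.

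Reads of all 81 members made up 3.60% and 3.56% of all reads in the EV libraries and 3.77% and 3.82% in the KO libraries in regular medium. In glucose-deprived medium they made up 4.13% and 4.17% in EV and 4.16% and 4.06% in KO libraries. The share was therefore lowest in EV cells in regular medium and highest under deprivation, where the EV and KO libraries overlapped. CPM are shares of a library, so fewer cells of a kind and less RNA per cell cannot be told apart, and a larger share need not be more ribosomal protein mRNA per cell.

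Both subunits followed this course. The sums here run over 49 large and 28 small subunit genes. Large subunit genes summed to 21556 and 21565 CPM in EV and 23027 and 23149.5 CPM in KO cells in regular medium, and to 25723 and 25700.3 CPM in EV and 25726 and 24823 CPM in KO cells without glucose. Small subunit genes summed to 11965 CPM in both EV libraries and to 12924 and 13162 CPM in KO cells in regular medium, and to 14176 and 14276 CPM in EV and 14445 and 13858 CPM in KO cells without glucose. The groups in regular medium did not overlap with each other or with the deprived groups in either sum. Without glucose the 2 KO libraries lay on either side of the EV libraries in both sums.

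The ratio between the subunits stayed within a narrow range. The large subunit sum was 1.80 ± 0.00050 times the small one in EV and 1.77 ± 0.016 times in KO cells in regular medium (SD, n = 2), and 1.81 ± 0.010 and 1.79 ± 0.0073 times in glucose-deprived medium. The KO mean lay below the EV mean in both media, the libraries of EV and KO cells did not overlap in either, and no test was made of a sum over the members. This order depended on the genes and the scale: over all 81 members the ratios in regular medium overlapped (1.61 and 1.65 in EV, 1.63 and 1.61 in KO), and per kilobase over all 81 those without glucose did (1.489 in KO glucose-deprived b, above 1.488 in EV glucose-deprived b).

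**Figure D2:**
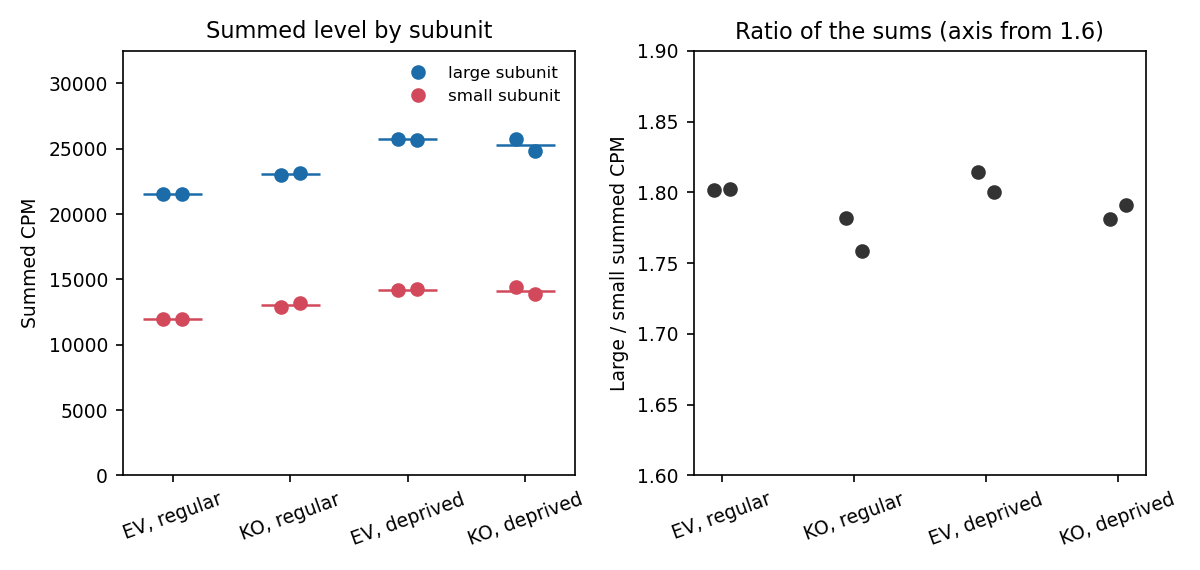
Left, summed CPM of 49 large and 28 small subunit genes in each library, with the group mean as a line. Right, the ratio of the sums on an axis that starts at 1.6. Both sums rise from EV regular to KO regular to the deprived groups, while the ratio stays between 1.76 and 1.81.

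In regular medium, ribosomal protein genes took a slightly larger share of the reads in KO than in EV cells, and none of the calls was kept in all 15 alternative fits. Of 80 genes tested 22 were called higher and 0 lower in limma (27.5% higher, where 3.87% of all tested genes were called higher and 3.38% lower), with 13 of 50 in the large and 9 of 30 in the small subunit. For the lower direction, 1 gene had an unadjusted p under 0.05, without a share of all tested genes to set beside it. Voom weights likewise gave 0 lower. The median log2 fold change was 0.12, 1.09-fold, against -0.0033 over all genes, with 0.11 for large and 0.12 for small subunit genes. The 2 KO libraries lay above the 2 EV libraries for 66 of 80 genes and below them for 4 (27.7% and 27.7% of all tested genes).

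RPL38, a large subunit surface protein known for its part in translating Hox mRNAs, stood at 265 and 265 CPM in EV and 313 and 307 CPM in KO cells. The KO libraries were higher without overlap (log2 fold change 0.23 ± 0.035 SE, adjusted p = 0.0048). RPS28, a small protein at the mRNA exit channel, read 84.5 and 90.05 CPM in EV and 105 and 99.4 CPM in KO cells, again without overlap (0.22 ± 0.047, adjusted p = 0.019). RPL39, in the wall of the exit tunnel, rose by 0.20 (adjusted p = 0.021), RPL23 by 0.19 (0.011), the stalk protein RPLP1 by 0.18 (0.018) and RPS16 by 0.18 (0.012). None of the 5 second copies was called. RPS3, at the mRNA entry channel, rose by 0.13 (adjusted p = 0.031), while RPS6, RPSA, RPL13A, RPS27A, RPL5 and RPL11 lay between 0.096 and 0.12 with adjusted p from 0.064 to 0.28.

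These calls depended on which libraries were fitted. Calls over all tested genes in fits with 1 library left out are not given here, so the counts of members have no share beside them. With EV regular a or EV regular b left out, 0 of the 22 were called. The count was 13 without KO regular a or b, 14 without either deprived EV library and 41 without either deprived KO library, which only share the spread. The median stayed between 0.092 and 0.14 in these fits, and without the variance trend the count was 1, RPL38 being the named gene that kept its call there.

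Glucose deprivation went with a larger and broader rise in EV cells. Of 80 genes 61 were called higher and 8 lower (76.3% and 10%), where 37.5% of all tested genes were called higher and 38.7% lower, since most of the transcriptome moved. By subunit, 37 rose and 5 fell of 50 large, and 24 rose and 3 fell of 30 small subunit genes. The median log2 fold change was 0.24, or 1.18-fold, against -0.011 over all genes, whose quartiles were -0.33 and 0.35. The ribosomal protein genes thus moved little in size, but mostly in 1 direction. The 2 deprived libraries lay above both regular ones for 65 genes and below them for 10 (44.7% and 45.7% of all tested genes). This comparison shares its EV regular libraries with the KO comparison above.

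In KO cells the rise was smaller. Deprivation raised 43 and lowered 10 of 80 genes, where 36.5% of all tested genes were called higher and 36.8% lower. The split was 25 higher and 8 lower in the large and 18 higher and 2 lower in the small subunit, with a median of 0.11, 1.08-fold, against -0.0015 over all genes. Deprived libraries lay above regular ones for 46 genes and below them for 11 (41.6% and 42.1% of all tested genes). No library is shared between the EV and the KO comparison. Across 76 genes the changes in EV and KO cells had a Pearson r of 0.91 (across genes, which are not independent). Of all 80 genes 40 rose in both, 6 fell in both and 1, RPL38, was called in opposite directions. Neither of these calls of RPL38 was kept in all 15 alternative fits.

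**Figure D3:**
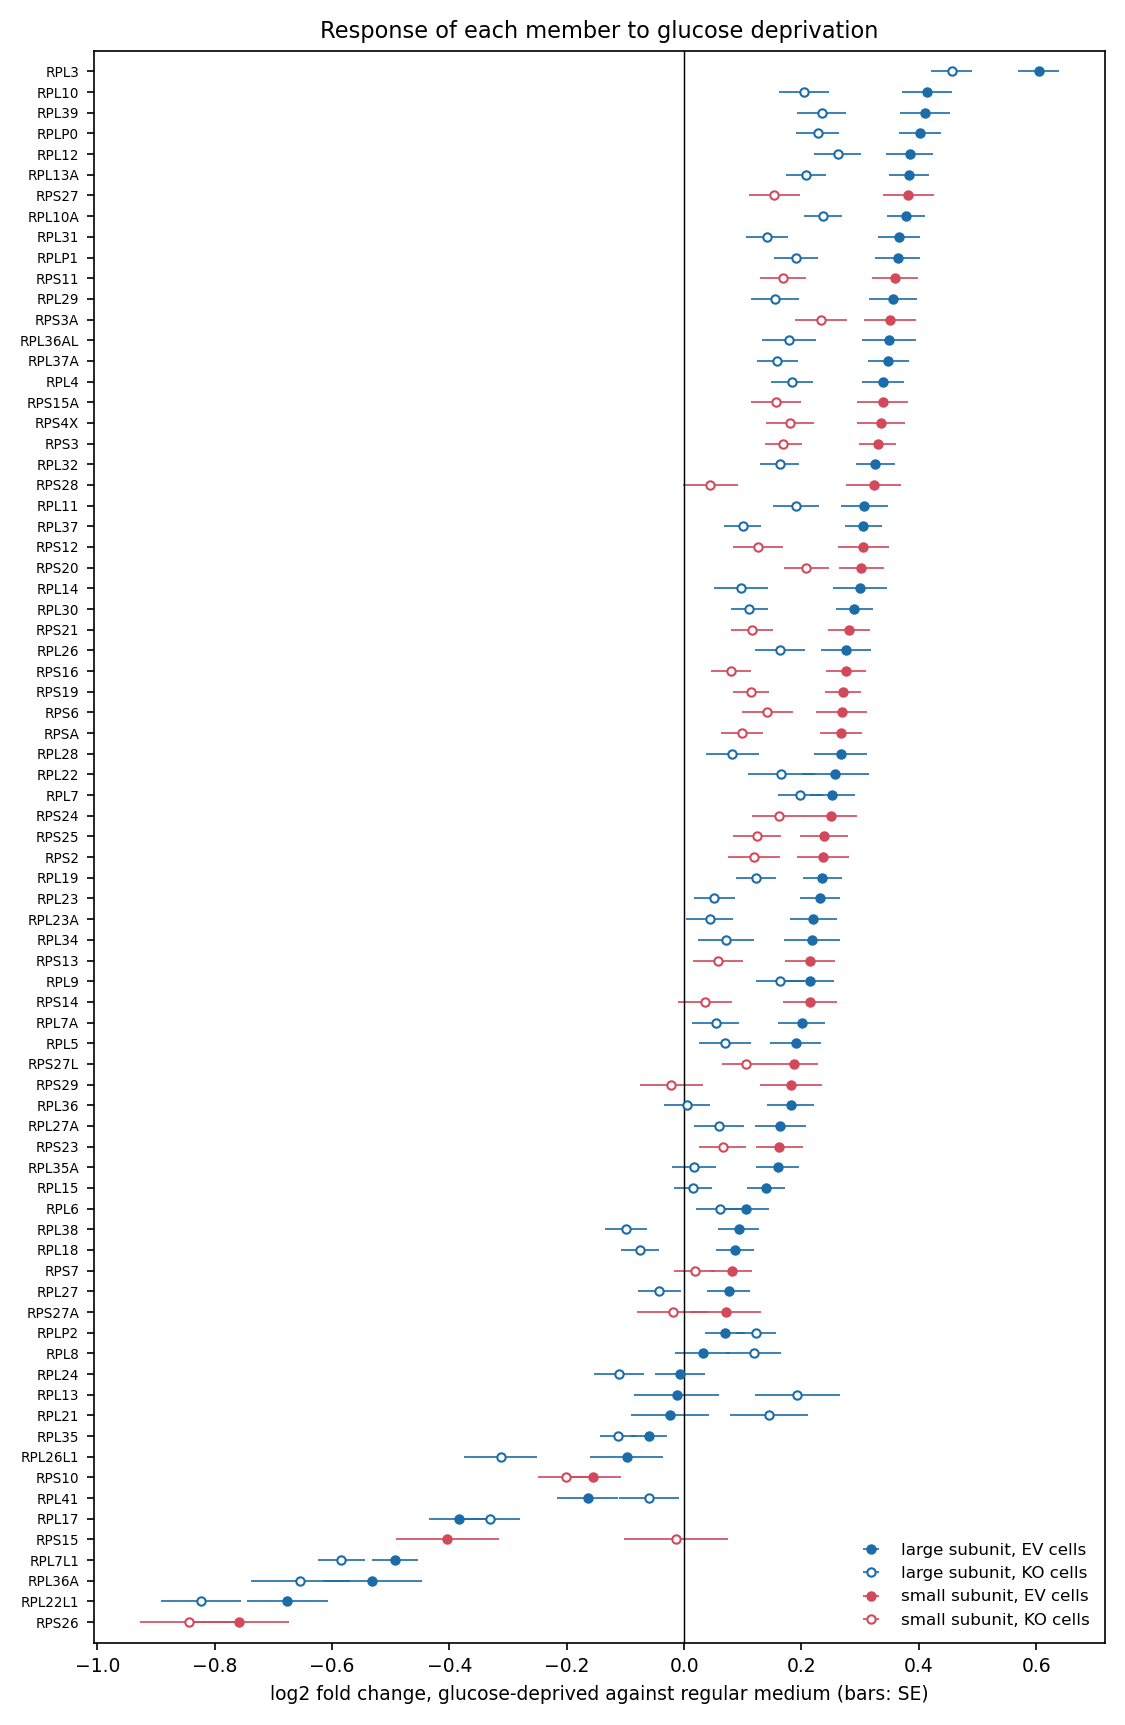
log2 fold change (± SE) of 76 tested ribosomal protein genes under glucose deprivation, in EV cells (filled) and KO cells (open), blue for the large and red for the small subunit, sorted by the EV value. RPL3 is at the top with 0.60 and 0.46, most genes lie between 0.05 and 0.41 in EV cells with a lower KO value, and RPS26, RPL22L1, RPL36A and RPL7L1 lie at the bottom at -0.84 to -0.49.

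RPL3, a core protein close to the peptidyl transferase centre, changed the most among the rises. It stood at 1007 and 1013 CPM in EV and 1053 and 1062 CPM in KO cells in regular medium, and at 1559 and 1513 in EV and 1489 and 1413 CPM in KO cells without glucose. Every deprived library lay above every regular one (log2 fold change 0.60 ± 0.035, adjusted p = 7.3e-08 in EV, and 0.46 ± 0.035, adjusted p = 6.6e-07 in KO cells). RPL3 lies on chromosome 22 (39312882 to 39320389, minus strand, GRCh38).

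The stalk, which recruits the translation factors that use GTP, moved unevenly. RPLP0, its scaffold, read 1094 and 1092 CPM in EV and 1069 and 1056 CPM in KO cells in regular medium. Without glucose it reached 1458 and 1430.5 CPM in EV but 1286 and 1204 CPM in KO cells, so the deprived groups did not overlap with each other or with the regular ones. The rise was 0.40 ± 0.036 in EV (adjusted p = 2.3e-06) and 0.23 ± 0.036 in KO cells (adjusted p = 2.0e-04). RPL12, at the base of the stalk, rose by 0.38 and 0.26, and RPLP1 by 0.36 and 0.19. RPLP2, the partner of RPLP1, stood at 538 and 532 CPM in EV regular and 567 and 556 CPM in EV deprived libraries (0.070, adjusted p = 0.085) and rose by 0.12 in KO cells (adjusted p = 0.0075).

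RPL5 and RPL11, which form the 5S particle and bind MDM2, rose in EV cells by 0.19 (adjusted p = 0.0023) and 0.31 (3.9e-05). RPL11 went from 742 and 723 to 904 and 908 CPM in EV cells, and in KO cells from 759 and 808 to 918 and 869 CPM, without overlap (0.19, adjusted p = 0.0013). RPL5 went from 722 and 725 to 827 and 824 CPM in EV cells. In KO cells its libraries overlapped, with 759 and 799.9 CPM in regular and 856 and 782 CPM in deprived medium (0.070, adjusted p = 0.17).

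Other large subunit genes with rises among the 8 largest in EV cells were RPL10, a late-joining protein needed for subunit joining (0.41, adjusted p = 6.6e-06), RPL39 (0.41), RPL13A, which also serves in transcript-selective translational silencing (0.38), and RPL10A of the L1 stalk, where spent tRNA leaves (0.38). The same genes rose in KO cells, by 0.20, 0.23, 0.21 and 0.24. RPL10A, for example, went from 379.7 and 388 to 502 and 496 CPM in EV cells and from 411 and 408 to 492 and 474 CPM in KO cells.

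Among small subunit genes RPS27, a zinc-finger protein, had the largest rise in EV cells, from 254 and 255 to 325 and 338 CPM (0.38 ± 0.043, adjusted p = 1.4e-05), and rose by 0.15 in KO cells. RPS3A and RPS20 had the largest called rises of the small subunit in KO cells (0.23 and 0.21) and rose by 0.35 and 0.30 in EV cells. RPS3 went from 1209.5 and 1199 to 1508 and 1519 CPM in EV cells (0.33, adjusted p = 3.5e-06) and by 0.17 in KO cells. RPS6, the substrate of S6 kinase downstream of mTORC1, rose by 0.27 and 0.14, and RPSA, also known as the laminin receptor precursor, by 0.27 and 0.098. Without KO glucose-deprived a, 3 of these rises in KO cells were not called: RPS27 (0.099, adjusted p = 0.058), RPS6 (0.070, adjusted p = 0.069) and RPSA (0.061, adjusted p = 0.15). RPS27A, made as a fusion with ubiquitin, was not called in either (0.071 and -0.019).

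Against this general rise, 6 genes fell in both cell types: RPS26, RPS10, RPL17, RPL36A, RPL22L1 and RPL7L1. In that order they ranked 75, 76, 73, 80, 77 and 72 of 81 by CPM per kilobase, so all lay near the low end. RPS27L, at rank 79, rose instead. Whether a low level or the assignment of reads had a part in these falls was not tested. RPS26 lines the mRNA exit channel, contacts the mRNA upstream of the start codon, and can be taken off the ribosome by its escort TSR2. It stood at 38.2 and 40.7 CPM in EV and 50.7 and 41.3 CPM in KO cells in regular medium, and at 23.5 and 23.1 in EV and 26.7 and 24.4 CPM in KO cells without glucose. All deprived libraries lay below all regular ones, with a log2 fold change of -0.76 ± 0.084 in EV (adjusted p = 1.1e-05) and -0.84 ± 0.084 in KO cells (adjusted p = 5.4e-06). These are 0.59 and 0.56 times the level in regular medium. RPS26 lies on chromosome 12 (56041351 to 56044697, plus strand, GRCh38), and a gene annotated on the other strand overlaps it.

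RPL17, which sits near the tunnel exit, went from 51.6 and 52.0 to 39.1 and 40.3 CPM in EV and from 49.5 and 55.1 to 41.8 and 41.2 CPM in KO cells. The deprived libraries were lower without overlap (-0.38 ± 0.051, adjusted p = 4.9e-05, and -0.33 ± 0.051, adjusted p = 1.6e-04). RPS10, which ZNF598 ubiquitinates on collided ribosomes, fell by less, from 29.2 and 28.2 to 25.7 and 25.8 CPM in EV (-0.16 ± 0.048, adjusted p = 0.013, and 0.099 without EV regular a) and from 29.4 and 31.2 to 26.8 and 25.9 CPM in KO cells (-0.20, adjusted p = 0.0031). RPL17, RPS10 and RPL36A are the 3 members with an annotated readthrough gene that joins them to a neighbour (RPL17-C18orf32, RPS10-NUDT3 and RPL36A-HNRNPH2). All 3 fell in both cell types, and they ranked 73, 76 and 80 of 81 by CPM per kilobase. How reads on the shared exons were assigned is not given in the sources used here, and its part in these levels was not tested.

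Of the paralog pairs, 3 had 1 gene that fell and 1 that rose in both cell types: RPL22L1 with RPL22, RPL7L1 with RPL7, and RPL36A with RPL36AL. RPL22L1 is the paralog of RPL22, an RNA-binding protein on the ribosome surface that is known to hold RPL22L1 mRNA down. RPL22 stood at 142 and 141 CPM in EV and 142 and 159 CPM in KO cells in regular medium, and at 171 and 167 in EV and 177 and 159.8 CPM in KO cells without glucose, a rise of 0.26 (adjusted p = 0.0019) and 0.17 (0.023). The rise of RPL22 in KO cells was not called without KO regular a (0.086, adjusted p = 0.19) or without KO glucose-deprived a (0.091, adjusted p = 0.18). RPL22L1 stood at 51.1 and 47.2, and 45.9 and 52.2 CPM in regular medium, and at 30.3 and 31.1, and 28.9 and 26.4 CPM without glucose. It fell by 0.68 ± 0.068 in EV (adjusted p = 5.6e-06) and by 0.82 ± 0.068 in KO cells (adjusted p = 1.4e-06), with no overlap between media. Per kilobase, RPL22L1 was 38.6% ± 2.0 of RPL22 in EV and 36.2% ± 0.48 in KO cells in regular medium and 20.2% ± 0.69 and 18.2% ± 0.16 without glucose (SD, n = 2).

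RPL7L1, a diverged relative of RPL7, showed the same course. It read 219 and 212 CPM in EV and 221 and 232 CPM in KO cells in regular medium, and 154 and 152 in EV and 156 and 147 CPM in KO cells without glucose. The deprived libraries were lower without overlap (-0.49 ± 0.040, adjusted p = 9.7e-07, and -0.58 ± 0.040, adjusted p = 3.0e-07), while RPL7 rose by 0.25 and 0.20. Per kilobase RPL7L1 went from 27.0% ± 1.1 to 16.1% ± 0.078 of RPL7 in EV and from 27.3% ± 0.61 to 15.9% ± 0.16 in KO cells.

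RPL36A and RPL36AL encode nearly the same protein, and here the gene that carries the usual name fell. RPL36A stood at 10.2 and 11.2, and 9.65 and 11.1 CPM in regular medium, and at 7.17 and 7.60, and 6.38 and 6.75 CPM without glucose. It fell by 0.53 ± 0.084 in EV (adjusted p = 1.7e-04) and by 0.65 ± 0.084 in KO cells (adjusted p = 4.0e-05). RPL36AL went from 82.1 and 86.7 to 109 and 106 CPM in EV (0.35, adjusted p = 4.8e-05) and from 84.3 and 89.5 to 102 and 95.2 CPM in KO cells (0.18, adjusted p = 0.0052). RPL36AL thus held most of the reads of the pair in every library, and RPL36A per kilobase went from 7.55% ± 0.21 to 4.10% ± 0.23 of it in EV and from 7.10% ± 0.39 to 3.99% ± 0.34 in KO cells. The size of all these pair percentages depends on the merged exon length used, which the SDs do not cover. Over all libraries RPL36A averaged 7.0 CPM per kilobase of merged exon but 20.4 per kilobase of principal transcript, with RPL36AL at 126 by either. For RPL7 these were 196 and 419, and for RPL7L1 41.4 and 41.6. The direction between media does not depend on the length.

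RPL26L1 was called lower only in KO cells, from 45.8 and 47.6 to 40.1 and 35.2 CPM (-0.31 ± 0.062, adjusted p = 9.4e-04), against 40.2 and 42.3 to 37.5 and 39.7 CPM in EV cells (-0.098, adjusted p = 0.17). The difference between these was -0.21 ± 0.088 (adjusted p = 0.17), so the test did not separate them. RPL26, its partner, rose by 0.28 and 0.16. RPS27L, a copy of RPS27, rose with its partner, by 0.19 (adjusted p = 0.0018) and 0.11 (0.038). Its call in KO cells was lost in 7 of the 15 alternative fits, with 0.050 (adjusted p = 0.27) without KO glucose-deprived a. RPS27L and RPL36AL were the second copies that rose. RPL39L, RPL3L and RPL10L, paralogs of RPL39, RPL3 and RPL10, are not analysed here.

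**Figure D4:**
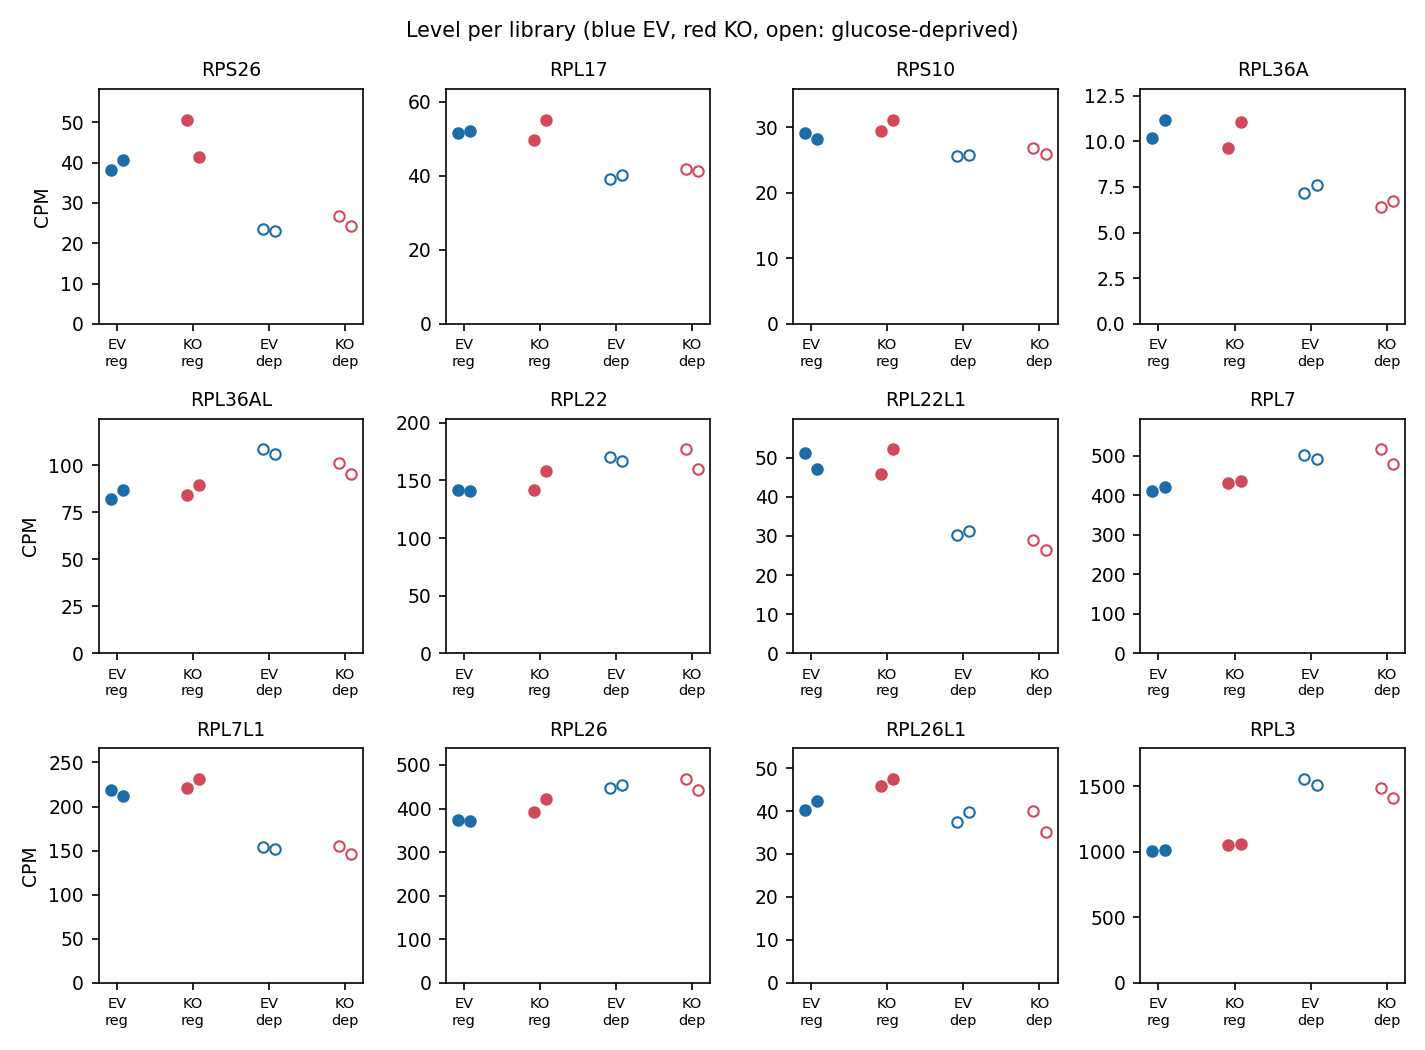
CPM of 12 ribosomal protein genes in each library (blue EV, red KO, open symbols for glucose-deprived; each axis starts at 0 and has its own scale). RPS26, RPL17, RPS10, RPL36A, RPL22L1 and RPL7L1 lie lower in all 4 deprived libraries, while RPL36AL, RPL22, RPL7, RPL26 and RPL3 lie higher in them.

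The remaining falls were called in 1 cell type. The interaction was called for none of their genes, so the test did not separate the cell types. In EV cells the called falls were those of RPL41, a very short protein between the subunits (-0.16 ± 0.052, adjusted p = 0.014), and RPS15, of the small subunit head near the decoding site (-0.40 ± 0.088, adjusted p = 0.0017). RPL41 changed by -0.060 in KO cells (adjusted p = 0.32), with an interaction of 0.10 (adjusted p = 0.41). RPS15 went from 338 and 337 to 259 and 251 CPM in EV cells, but stood at 342 and 291 in regular and 282 and 346 CPM in deprived KO libraries, which overlapped (-0.014, adjusted p = 0.89). In KO cells the called falls were those of RPL24 (-0.11, adjusted p = 0.037), RPL35 at the tunnel exit (-0.11, adjusted p = 0.0071) and RPL38 (-0.099, adjusted p = 0.026), beside RPL26L1. In EV cells RPL24 changed by -0.0073 (adjusted p = 0.88) and RPL35 by -0.060 (adjusted p = 0.10). The interaction was 0.39 for RPS15 (adjusted p = 0.10), -0.19 for RPL38 (0.059), -0.10 for RPL24 (0.33) and -0.053 for RPL35 (0.50). RPL38 had risen with deprivation in EV cells, from 265 and 265 to 275 and 291 CPM (0.093, adjusted p = 0.033), and in KO cells went from 313 and 307 to 292 and 287 CPM. Of these falls, those of RPS15, RPL35 and RPL26L1 were kept in all 15 alternative fits, and RPL41 was not called without EV regular a (-0.12, adjusted p = 0.14).

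KO glucose-deprived b was the highest of all 8 libraries for 5 genes: RPL13, RPL8, RPLP2, RPS15 and RPS2. For RPS2 and RPS15 the margin was small. RPS2 read 878.7 CPM there and 878.1 CPM in EV glucose-deprived b, and RPS15 read 346 CPM against 342 CPM in KO regular a. By comparison, KO glucose-deprived a was the highest library for 30 members. RPL13 read 525 CPM in a and 632 CPM in b, and RPL8 read 1212 and 1308 CPM. The called rises of RPL13 (0.19, adjusted p = 0.033) and RPL8 (0.12, adjusted p = 0.041) in KO cells were lost without that library (0.058, adjusted p = 0.31, and 0.063, adjusted p = 0.24), whereas RPLP2 kept its call (0.083, adjusted p = 0.037). This library's part in the smaller rise in KO cells was not tested beyond leaving it out. The deprivation median in KO cells was 0.13 without it and 0.087 without KO glucose-deprived a.

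Under deprivation KO and EV cells differed in few of these genes. In limma 1 of 80 was called higher and 2 lower in KO cells, where 9.04% of all tested genes were called higher and 10.6% lower, and the median was -0.016 against -0.0057 over all genes. The 2 lower were RPLP0 (values above, -0.21 ± 0.036, adjusted p = 0.0034) and RPL6, a large subunit surface protein, with 617 and 629.8 CPM in EV and 581 and 553 CPM in KO cells (-0.14 ± 0.041, adjusted p = 0.038). The 1 higher was RPS15, with 259 and 251 CPM in EV and 282 and 346 CPM in KO cells (0.29 ± 0.088, adjusted p = 0.043). The libraries of EV and KO cells overlapped for none of the 3. Over all 80 genes the KO libraries lay wholly higher for 12 and wholly lower for 16 (28.0% and 33.1% of all tested genes). RPLP0 was the 1 gene of the 3 whose call was kept in all 15 alternative fits, and RPS15 was not called without any 1 of 5 libraries. Its value was 0.14 (adjusted p = 0.24) without KO glucose-deprived b and 0.27 (adjusted p = 0.198) without EV glucose-deprived b. At an unadjusted p under 0.05, 5 genes were higher and 6 lower, a threshold for which no share of all tested genes is given here.

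The difference of differences pointed 1 way. Deprivation raised ribosomal protein genes less, or lowered them more, in KO than in EV cells for 69 of 76 genes (51.3% of all tested genes had an interaction below 0), with a median interaction of -0.15 on the log2 scale against -0.0051 over all genes. In limma 4 of 80 were called below 0 and 0 above, where 2.01% and 2.31% of all tested genes were called. At an unadjusted p under 0.05, 44 lay below and 2 above. The share of all tested genes at that unadjusted threshold is not given here, and the shares of calls do not apply to it. With voom weights 3 were called below 0 and 0 above. The called genes were RPS28, RPL31 at the tunnel exit, RPL37 and RPS16.

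RPS28 showed the course behind this. Its EV libraries went from 84.5 and 90.05 to 106 and 112 CPM (0.32, adjusted p = 8.6e-05), while its KO libraries started at 105 and 99.4 and ended at 103 and 107 CPM (0.045, adjusted p = 0.40). The EV regular libraries were the low ones, the deprived KO libraries overlapped with both deprived EV and regular KO libraries, and the interaction was -0.28 ± 0.066 (adjusted p = 0.044). RPL31 went from 368 and 369 to 469 and 481 CPM in EV and from 408 and 425 to 469 and 449.5 CPM in KO cells (interaction -0.23 ± 0.050, adjusted p = 0.035). RPL37 had an interaction of -0.21 (adjusted p = 0.032) and RPS16 of -0.20 (adjusted p = 0.048). Each of the 4 rose in KO cells in regular medium and in EV cells under deprivation, comparisons that share the EV regular libraries with the interaction. Of all 81 members, 63 had their lowest value in an EV regular library and 64 their highest in a deprived library.

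No interaction call was kept in every alternative fit. The counts of members in fits with 1 library left out again have no share of all tested genes beside them. The count below 0 was 40 without KO glucose-deprived a, 10 without KO regular b, 2 without KO regular a and 0 without any 1 of the other 5 libraries, while the median stayed between -0.18 and -0.10.

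**Figure D5:**
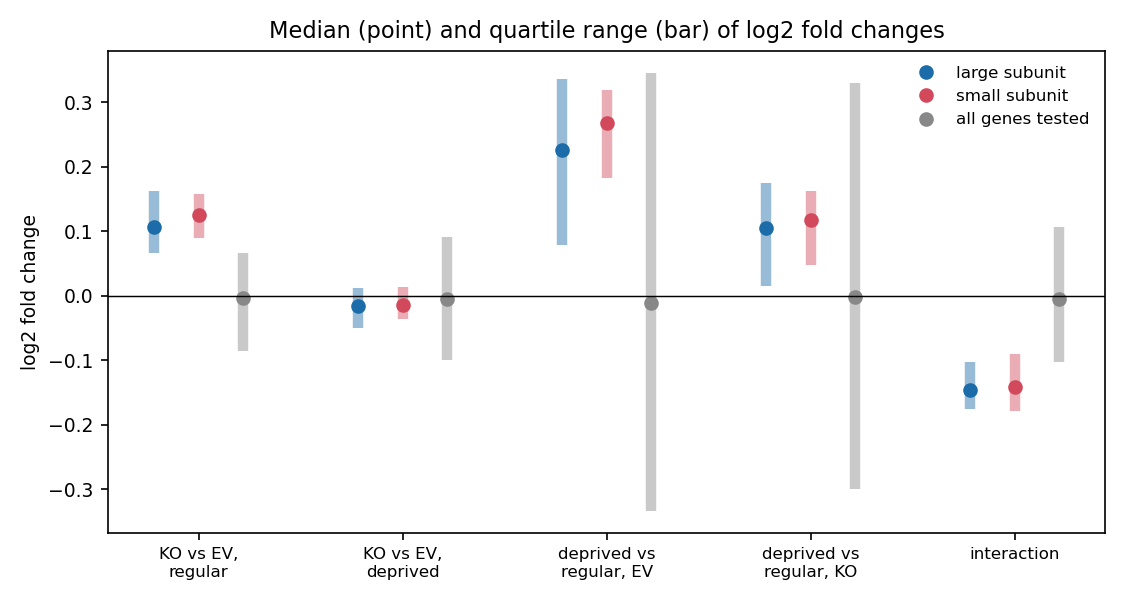
Median (point) and quartile range (bar) of log2 fold changes of large subunit genes, small subunit genes and all tested genes in the 5 contrasts. Large and small subunit genes lie together in each, near 0.12 for KO against EV in regular medium, near 0 for KO against EV without glucose, at 0.23 and 0.27 under deprivation in EV cells, near 0.11 in KO cells and near -0.14 for the interaction, while the median of all genes stays near 0.

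In EV cells most members rose both with and without the TOP run at an annotated start. Under deprivation in EV cells 35 of 45 tested members with a run rose and 4 fell (median 0.26), against 13 and 4 of 20 without (0.18). In KO cells these were 24 and 6 of 45 (median 0.12) against 9 and 4 of 20 (0.053). Of all tested genes 37.5% were called higher and 38.7% lower in EV cells, and 36.5% and 36.8% in KO cells. Of 725 tested genes outside the members with such a run, 319 rose and 228 fell in EV cells (median 0.077). Of the 8 members that fell in EV cells, 4 had the run: RPL22L1, RPL36A, RPS10 and RPL41. No test was made of these shares.

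Host genes of small nucleolar RNAs, which guide the modification of ribosomal RNA from introns of ribosomal protein genes, were 28 of the members, with 59 annotated snoRNAs. In EV cells 24 of the 28 rose and 1 fell (median 0.28), against 37 and 7 of 52 other tested members (0.22) and 37.5% and 38.7% of all tested genes. In KO cells 19 rose and 1 fell (median 0.14), against 24 and 9 of the 52 (0.090) and 36.5% and 36.8% of all tested genes. Members carry many processed pseudogenes of near-identical sequence, 1140 named in GENCODE, with a median of 9 and up to 91 for RPL23A, so reads may be shared between them. The number of pseudogenes did not run with level per kilobase (rho = -0.00062 over 81 genes, as a description). Among dropped names, RPL13AP5 stood at 108 and 109 CPM in EV regular and 135 and 136 CPM in EV deprived libraries, beside RPL13A. RPS10P7 stood at 1.65 and 1.79 and at 4.31 and 4.52 CPM, the reverse of RPS10.

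The genes around the ribosome were described from lists, whose counts stand against 37.5% of all tested genes called higher and 38.7% lower in EV cells and 36.5% and 36.8% in KO cells. Of 23 other genes whose mRNAs are known TOP mRNAs, 19 rose and 1 fell in EV cells and 16 rose and 1 fell in KO cells (medians 0.30 and 0.21). EEF2, the elongation factor that moves the ribosome, went from 2757 and 2710.1 to 4069 and 3968 CPM in EV cells (0.56, adjusted p = 1.3e-07), EEF1A1 rose by 0.55, EIF4B by 0.57 and RACK1, a small subunit protein with no RPS name, by 0.44. The 1 that fell was SNHG1, a noncoding snoRNA host (-0.65 and -0.73). FAU, outside the rule, fell by 0.20 under deprivation in KO cells (adjusted p = 8.7e-04) but was not called in EV cells (-0.021, adjusted p = 0.64).

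Of 18 escorts and assembly factors of ribosomal proteins, 5 rose and 11 fell in EV and 4 rose and 10 fell in KO cells (medians -0.19 and -0.17), where 38.7% and 36.8% of all tested genes fell. TSR2, the escort of RPS26, went from 42.8 and 41.6 to 26.4 and 27.4 CPM in EV cells (-0.65, adjusted p = 5.6e-07) and fell by 0.64 in KO cells, so it was lower in the same libraries as RPS26. GRWD1, which escorts RPL3, fell by 0.82 and 0.71 while RPL3 rose. BCCIP, which escorts RPL23, fell by 0.65 and 0.62, and HEATR3, which imports RPL5, by 0.41 and 0.39. EFL1, which releases EIF6 from the new large subunit, rose by 0.72 and 0.61.

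Of 9 measured genes of the 5S particle and MDM2 list, 5 rose and 4 fell in each cell type. Assembly factors of the 5S particle fell, RRS1 from 129 and 122 to 60.2 and 60.5 CPM in EV cells (-1.06, adjusted p = 2.8e-07), with RPF2 at -0.42 and BRIX1 at -0.24. MDM4, a relative of MDM2, rose by 0.78, CDKN1A by 0.63 and MDM2 by 0.56 in EV cells. These are mRNA levels and say nothing of MDM2 bound by RPL5 or RPL11.

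Of 19 regulators of TOP mRNAs and mTORC1, 7 rose and 10 fell in EV cells and 5 rose and 6 fell in KO cells, where 37.5% and 38.7%, and 36.5% and 36.8%, of all tested genes did. LARP1 itself rose by 0.18 in EV cells under deprivation and by 0.15 in KO cells in regular medium (adjusted p = 0.019). EIF4EBP1, an inhibitor of cap-dependent translation, rose by 0.89 and 0.96, but the inhibitors of this kind on the list did not all move the same way. EIF4G1 fell by 0.64 and 0.65. Of 10 transcription factors tied to ribosomal protein genes, 4 rose and 4 fell in EV and 6 rose and 3 fell in KO cells. MYC went from 43.7 and 45.8 to 83.8 and 83.7 CPM in EV cells (0.91) and rose by 0.85 in KO cells, and MXI1, a MYC antagonist, rose by 1.89 and 1.82. Of 16 genes of ribosome collision and quality control, 7 rose and 7 fell in EV and 7 rose and 6 fell in KO cells, near the shares of all tested genes, and in EV cells LTN1 rose by 0.71 and ABCE1 fell by 0.71.

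Mitochondrial ribosomal proteins, the counterpart set of the organelle, fell more often than they rose. Of 76 genes tested 13 rose and 49 fell under deprivation in EV cells and 11 rose and 48 fell in KO cells (medians -0.24 and -0.23), where 37.5% and 38.7%, and 36.5% and 36.8%, of all tested genes did, with MRPS34 at -0.77 and MRPL20 at -0.55 in EV cells. The corresponding cytosolic counts were 61 and 8, and 43 and 10, of 80. In regular medium 1 mitochondrial gene was higher and 1 lower in KO cells, against 22 and 0 of the cytosolic genes. Of all tested genes 3.87% were called higher and 3.38% lower there. None of the 22 cytosolic calls was kept in all 15 alternative fits.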

How the data were processed

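Total RNA from 8 libraries was sequenced after a SMART-Seq mRNA and Nextera XT preparation, per the labels' protocols, a preparation without strand information, in which reads of overlapping or antisense genes look alike. HISAT2, edgeR and GRCh38 were used per the submitters' processing notes. Versions, counting tool, annotation and gene filter are not given in the sources used here. The authors deposited log2 values whose form is log2 CPM with a prior averaging 2 reads: whole reads were recovered for 100% of values (tolerance 0.05). CPM in the text were rebuilt from these reads, without the prior (0.023 CPM).

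The log2 values were fitted with limma 3.58.1 (R 4.3.3) in 1 model of 4 group means, with a variance trend. It had 4 residual and 6.29 prior degrees of freedom. Genes whose log2 CPM averaged 0 or more entered, p-values are two-sided and were adjusted by Benjamini-Hochberg over 13057 genes per contrast, and genes were called at an adjusted p under 0.05. KO was compared with EV per medium, and deprived with regular medium per cell type, and the interaction of both was the last of 5 contrasts. Standard errors are limma's. The script was tested on simulated data. Column headers carry no replicate numbers.

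Gene coordinates and lengths come from GENCODE release 29, and start windows from RefSeq GRCh38.p14. Named members are paralog pairs, stalk and 5S particle genes, RPS6, RPSA, RPS3, RPL13A and RPS27A, up to 8 largest called rises and falls per contrast, and the 3 highest and lowest per kilobase. From each list up to 3 called genes per contrast are named by adjusted p. TSR2, HEATR3, BRIX1, EIF4EBP1, RPL13, RPL24, RPS2 and the pseudogenes were chosen after their values were seen. The members and lists were chosen with earlier results of these data known. Some genes, 4 of them members, are not reported here: they stay in the counts and medians of calls but are left out of the summed CPM, of statements over 76 genes and of the figures of single genes.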

Additional observations from a re-analysis of the deposited data

Results flagged for a closer look

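The response to glucose deprivation differed between KO and EV cells for 4 ribosomal protein genes by the interaction test in limma, and each rose less in KO cells. The interaction on the log2 scale was -0.28 for RPS28, -0.23 for RPL31, -0.21 for RPL37 and -0.20 for RPS16. None of these calls was kept in all 15 alternative fits. Groups of 2 libraries are too small for a test of single outlying libraries.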

How the results depend on the processing

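No paired analysis was possible because the columns carry no replicate numbers. For calls of named genes, 1065 values under alternatives were checked, of which 962 kept the call, 103 lost it and 0 reversed. Named values that were not called are not in this count, so gained calls cannot be seen in it. All 15 fits kept 62 of 69 calls for deprivation in EV cells, 37 of 53 in KO cells, 1 of 3 for KO against EV without glucose, 0 of 22 in regular medium and 0 of 4 for the interaction.

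With 1 library left out, members called higher in KO cells in regular medium ranged from 0 to 41 and their median from 0.092 to 0.14. In glucose-deprived medium 0 to 4 were higher and 1 to 6 lower, with a median from -0.049 to 0.020. For deprivation in KO cells the median ranged from 0.087 to 0.13. No count over all tested genes is given for these fits. For the interaction 0 to 2 were called above and 0 to 40 below 0, with a median from -0.18 to -0.10.

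Without the variance trend 1 member was called higher for KO in regular medium, 0 higher and 1 lower in glucose-deprived medium, and 0 below 0 for the interaction. Scaling to genes outside the set gave 0 higher in KO cells in glucose-deprived medium and a deprivation median of 0.22 in EV cells, and median-of-ratios scaling gave 7 interaction calls below 0. The cause was not tested. Ranking levels by the principal transcript was added after seeing the data.

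With 2 libraries a group, the spread is shared over all genes and groups, and small changes of members near 0.1 on the log2 scale lie at the limit of what is called.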
